A study of Mus musculus with 12 samples.

Results

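Fibronectin (Fn1), vitronectin (Vtn) and the integrin chains that bind their Arg-Gly-Asp (RGD) motif were compared between the tumor types. The members were the 10 genes of a fixed list, namely the ligands Fn1 and Vtn, the alpha chains Itga5, Itgav and Itga8, and the beta chains Itgb1, Itgb3, Itgb5, Itgb6 and Itgb8. All 10 were measured, each by 1 probe set that carries its symbol alone, among 19938 genes on the array. RNA came from ZsGreen-tagged tumor cells sorted from brains of FVB mice, with 1 Affymetrix Mouse Gene 1.0 ST array for each of 6 mice with pEGFR-Hi and 6 mice with pEGFR-Lo tumors. Both tumor types started from 1 pool of subventricular zone progenitors of Ink4a/Arf null mice that had been transduced with human EGFRvIII, a constitutively active form of the EGF receptor, and each had been grown as a brain tumor in syngeneic mice and kept as tumorspheres. The pEGFR-Hi line had high EGFRvIII phosphorylation and the pEGFR-Lo line had low EGFRvIII phosphorylation. For each mouse, 2 µl of a suspension at 200000 cells per µl had been injected into the brain. Brains were collected near the median survival of each group, which is shorter for pEGFR-Hi, so line and time since injection cannot be told apart. Each tumor type is 1 line, and the p-values measure spread among mice of that line. The labels give no age of the mice.

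Integrins are receptors made of 1 alpha and 1 beta chain that link the extracellular matrix to the actin cytoskeleton. Fibronectin is laid down as fibrils by cells, and the classical receptor for this is the pair of Itga5 with Itgb1. Itgav pairs with Itgb1, Itgb3, Itgb5, Itgb6 or Itgb8 and binds vitronectin, fibronectin or the latent form of TGF-beta, while Itga8 pairs with Itgb1 and is best known as the receptor for nephronectin. In glioma, fibronectin and the Itgav receptors are known for their part in adhesion along blood vessels and in invasion.

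Values are log2 RMA values, in which 1 unit is a doubling, and a level of one gene cannot be set against that of another. Background was set at 4.10, the level below which 95% of 1027 olfactory receptor genes lie. Calls required limma p-values, adjusted by Benjamini and Hochberg over all genes, under 0.01 together with a 2-fold or larger difference. The array medians ran from 4.81 to 4.88. Replicates 3 and 6 of pEGFR-Lo stood apart from the others in 8 interferon-stimulated genes, with means of 4.42 and 4.44. The other 4 pEGFR-Lo mice were at 5.25 to 5.94 and the pEGFR-Hi mice at 7.08 to 8.53. In pEGFR-Hi, replicates 1, 3 and 5 were at 7.90, 8.12 and 8.53, and replicates 2, 4 and 6 at 7.25, 7.285 and 7.08. The members were also compared without pEGFR-Lo replicates 3 and 6, and no fit left out more than 1 pEGFR-Hi mouse. The neural progenitor markers Sox2, Olig2, Nes, Vim and Sox9 were above background in all 12 mice and none of them was called between the groups. Of these, Sox2 missed only the 2-fold limit, at 1.42-fold higher in pEGFR-Hi without overlap (adjusted p = 4.5e-04 from limma). The list of neural progenitor and glioma cell markers had 9 measured genes. Prom1 (at least 3.58-fold), Cd44 (2.08-fold) and Gfap (2.69-fold) were called higher in pEGFR-Hi and Fabp7 (2.58-fold) in pEGFR-Lo. These calls were 33.3% and 11.1% of the list. Over all genes, 3.99% were called toward pEGFR-Hi and 5.06% toward pEGFR-Lo. The probe set of Cdkn2a, the gene deleted in the Ink4a/Arf null mice of both lines, read 5.26 ± 0.13 in pEGFR-Hi and 5.36 ± 0.14 in pEGFR-Lo (SD, n = 6 mice each), and where its probes lie relative to the deletion is not known here, so it is no check of the lines. In sorted bulk samples, a lower value can mean fewer cells that use a gene or less RNA of it in each cell.

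The tumor types differed in fibronectin and in the alpha chains of its receptors. Fn1 and Itga5 were higher in pEGFR-Hi, at 5.88-fold and 2.10-fold, and Itga8 and Itgav were higher in pEGFR-Lo, at 5.46-fold and 2.47-fold. Of the 10 members, 2 were therefore called higher in pEGFR-Hi, where 3.99% of all genes were called, and 2 were called higher in pEGFR-Lo, where 5.06% of all genes were called. The beta chains Itgb1, Itgb3, Itgb5 and Itgb8 had adjusted p-values under 0.01 but did not reach 2-fold, and Vtn and Itgb6 did not pass the test. In all, 8 members had an adjusted p under 0.01 at any fold, as did 27.6% of all genes.

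**Figure D1:**
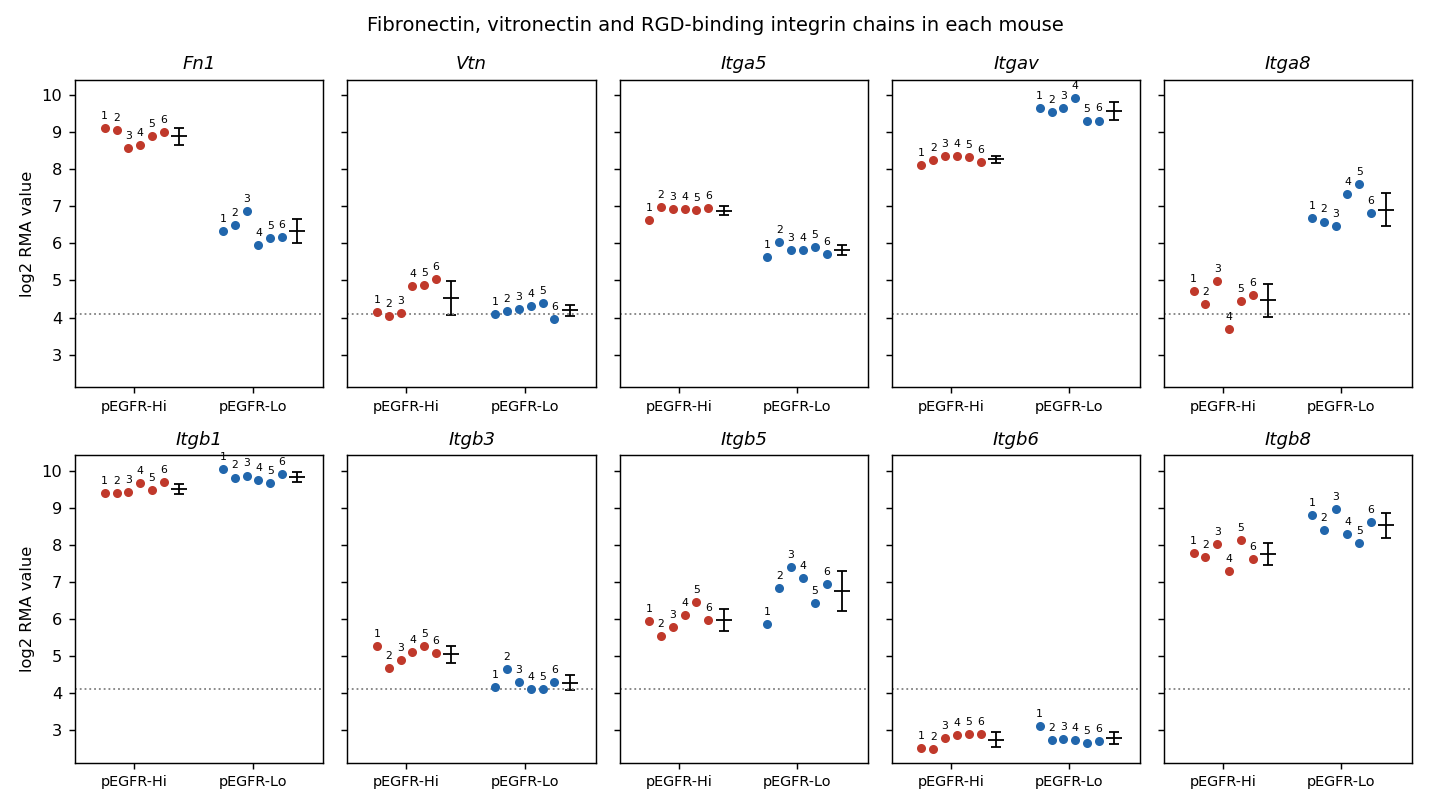
Log2 RMA value (y axis) of each member in each of 6 pEGFR-Hi mice (red) and 6 pEGFR-Lo mice (blue), with replicate numbers. Bars give the mean and SD of each group and the dotted line is the background level of 4.10. Fn1, Itga5, Itgav, Itga8 and Itgb3 show no overlap between the groups, and Itgb6 lies below background in every mouse.

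The promoter table used held 8 of the 10 members and lacked Fn1, which was called, and Itgb3. Among the called members, the 250 bases before the RefSeq start are therefore shown for the 3 alpha chain genes only (build GRCm38.p6, on the strand of the gene). Capitals mark matches, on either strand, to an AP-1 site (TGANTCA), a STAT site (TTCNNNGAA), a GC-box (GGGCGG), an E-box (CANNTG) or a TEAD site (GGAATG).
Itga5, chr15:103366792-103367041, minus strand: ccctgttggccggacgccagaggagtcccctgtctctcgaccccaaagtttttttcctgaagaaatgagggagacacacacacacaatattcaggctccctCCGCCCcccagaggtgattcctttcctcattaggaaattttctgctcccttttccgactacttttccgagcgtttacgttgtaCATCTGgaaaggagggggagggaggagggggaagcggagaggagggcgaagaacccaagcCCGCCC
Itgav, chr2:83724147-83724396, plus strand: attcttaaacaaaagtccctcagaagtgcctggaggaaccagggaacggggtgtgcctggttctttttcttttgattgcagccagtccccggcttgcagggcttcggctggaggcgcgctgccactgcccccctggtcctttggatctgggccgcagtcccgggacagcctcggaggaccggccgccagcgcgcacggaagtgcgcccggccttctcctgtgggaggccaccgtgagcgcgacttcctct
Itga8, chr2:12301945-12302194, minus strand: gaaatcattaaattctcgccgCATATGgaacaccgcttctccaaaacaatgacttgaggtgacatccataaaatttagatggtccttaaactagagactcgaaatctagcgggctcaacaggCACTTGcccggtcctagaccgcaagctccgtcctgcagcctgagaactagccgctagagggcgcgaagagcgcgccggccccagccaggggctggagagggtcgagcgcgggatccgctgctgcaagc

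The Itga5 window held 2 GC-boxes, starting 149 and 6 bases before the start, and 1 E-box. The Itga8 window held 2 E-boxes, and the Itgav window held no match to any of these motifs. Of the uncalled members, Itgb1 had 1 GC-box and Itgb5 had 3, both with higher means in pEGFR-Lo. The Vtn, Itgb6 and Itgb8 windows held no GC-box. Among 32851 promoter windows of this length in the table, 32.7% held a GC-box, 66.2% an E-box, 6.75% an AP-1 site, 7.02% a STAT site and 12.6% a TEAD site. These matches are letters in a short window and say nothing of whether a factor binds there. The GC content was 55.6% for Itga5, 64.4% for Itgav and 56.4% for Itga8, against a mean of 53.2% over all windows.

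Fn1 encodes fibronectin, the ligand shared by many of these receptors. In pEGFR-Hi its value ran from 8.57 to 9.12 with a median of 8.95, and in pEGFR-Lo from 5.96 to 6.87 with a median of 6.25. The groups did not overlap, and the lowest pEGFR-Hi mouse lay 1.70 above the highest pEGFR-Lo mouse, replicate 3. The means were 8.89 ± 0.22 and 6.33 ± 0.33 (SD, n = 6 mice each), a log2 difference of 2.56 ± 0.14 (SE, 5.88-fold, 95% interval 4.76 to 7.27, adjusted p = 1.05e-09 from limma). Among genes higher in pEGFR-Hi, Fn1 ranked 49 by the size of the difference. Without pEGFR-Lo replicates 3 and 6 the difference was 2.65.

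Vtn, the gene of vitronectin, an adhesion protein of plasma that brain pericytes also make, was close to background in pEGFR-Lo and in pEGFR-Hi replicates 1, 2 and 3. It ran from 4.05 to 5.04 in pEGFR-Hi and from 3.96 to 4.38 in pEGFR-Lo. It was above background in 5 of 6 pEGFR-Hi mice and in 4 of 6 pEGFR-Lo mice. Replicates 4, 5 and 6 of pEGFR-Hi were at 4.85, 4.89 and 5.04, above every pEGFR-Lo mouse, and replicates 1, 2 and 3 were at 4.15, 4.05 and 4.12. The difference of 0.33 did not pass the test (95% interval -0.034 to 0.69 on the log2 scale, adjusted p = 0.157 from limma).

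Itga5, the alpha chain of the classical fibronectin receptor, was higher in pEGFR-Hi. Its value ran from 6.62 to 6.97 with a median of 6.93 in pEGFR-Hi, and from 5.63 to 6.03 with a median of 5.81 in pEGFR-Lo. The groups did not overlap, and 5 of the 6 pEGFR-Hi mice lay within 6.90 to 6.97 while replicate 1 was the lowest. The log2 difference was 1.07 ± 0.087 (SE, 2.10-fold, 95% interval 1.84 to 2.39, adjusted p = 7.29e-08 from limma). The interval reaches below the 2-fold limit. The gene was called in each of the 22 alternative analyses, but several of these, such as SAM, leave the log2 difference at 1.07 by construction.

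Itgav, the alpha chain shared by the vitronectin receptors and the receptors that release latent TGF-beta, was lower in pEGFR-Hi. It ran from 8.12 to 8.35 with a median of 8.29 in pEGFR-Hi, and from 9.31 to 9.93 with a median of 9.60 in pEGFR-Lo. Every pEGFR-Lo mouse lay at least 0.96 above every pEGFR-Hi mouse. The difference was -1.30 ± 0.10 on the log2 scale (SE, 2.47-fold toward pEGFR-Lo, 95% interval 2.12 to 2.87, adjusted p = 4.73e-08 from limma). The mice of pEGFR-Hi were closely grouped for this gene, with an SD of 0.092 against 0.23 in pEGFR-Lo.

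Itga8, the alpha chain of the nephronectin receptor, had the largest difference toward pEGFR-Lo among the members. It ran from 3.69 to 5.0 with a median of 4.52 in pEGFR-Hi, and from 6.46 to 7.60 with a median of 6.76 in pEGFR-Lo. The groups did not overlap, with a gap of 1.47 between them, and pEGFR-Hi replicate 4 was below background. The means were 4.47 ± 0.44 and 6.91 ± 0.45 (SD, n = 6 mice each), a difference of -2.45 ± 0.22 (SE, 5.46-fold toward pEGFR-Lo, 95% interval 3.97 to 7.50, adjusted p = 1.73e-07 from limma). Since pEGFR-Hi levels were near background, this fold can understate the difference in RNA. Without pEGFR-Lo replicates 3 and 6 the difference was -2.59.

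**Figure D2:**
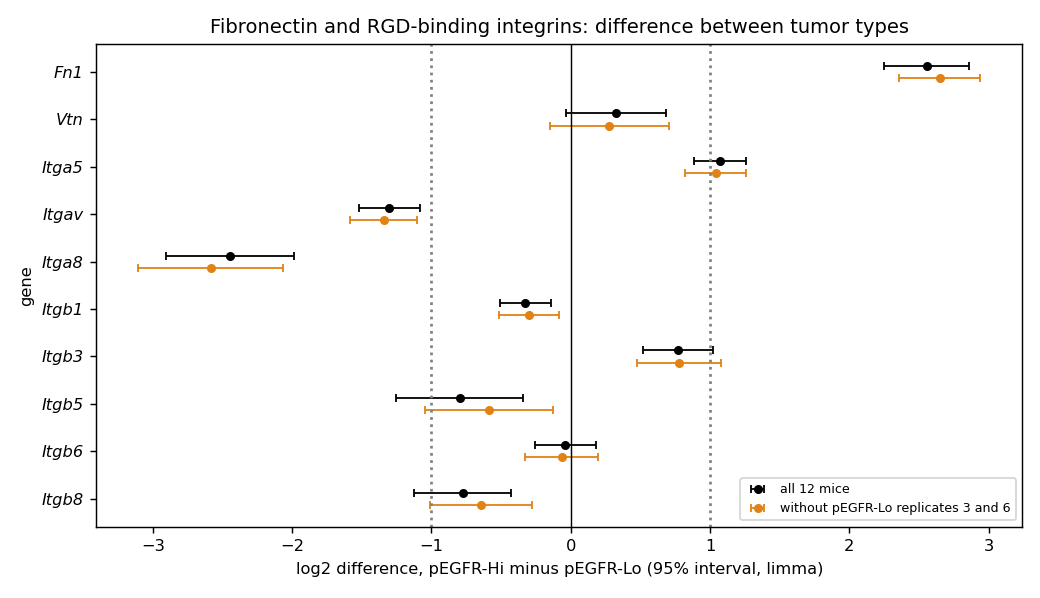
Log2 difference of pEGFR-Hi minus pEGFR-Lo (x axis) for each member (y axis), with 95% intervals from limma, over all 12 mice (black) and without pEGFR-Lo replicates 3 and 6 (orange). Dotted lines mark 2-fold. Fn1 at 2.56 and Itga8 at -2.45 lie far beyond the lines, Itga5 and Itgav lie just beyond them, and the 5 beta chains lie between them.

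The beta chains differed less than the alpha chains, and none was called. Itgb1, the common partner of Itga5, Itga8 and many other alpha chains, ran from 9.41 to 9.69 in pEGFR-Hi and from 9.67 to 10.04 in pEGFR-Lo, and the groups overlapped through pEGFR-Hi replicates 4 and 6, at 9.67 and 9.69. The difference was -0.33 ± 0.085 (SE, 1.25-fold toward pEGFR-Lo, 95% interval 1.11 to 1.42, adjusted p = 0.00621 from limma). The adjusted p for Itgb1 was above 0.01 in 11 of the 22 alternative analyses.

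Itgb3, the beta chain of the vitronectin receptor of endothelial cells and of the platelet fibrinogen receptor, was the beta chain with the higher value in pEGFR-Hi. It ran from 4.68 to 5.28 with a median of 5.10 in pEGFR-Hi, and from 4.12 to 4.66 with a median of 4.23 in pEGFR-Lo. The groups were separated by 0.023 only, and pEGFR-Lo replicate 2 was the closest mouse. The difference was 0.77 ± 0.12 (SE, 1.70-fold, 95% interval 1.43 to 2.03, adjusted p = 6.68e-05 from limma), with pEGFR-Lo values just over background.

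Itgb5 and Itgb8, both partners of Itgav, had higher means in pEGFR-Lo. Itgb5, which with Itgav binds vitronectin, ran from 5.55 to 6.46 in pEGFR-Hi and from 5.88 to 7.42 in pEGFR-Lo, and the groups overlapped through pEGFR-Lo replicates 1 and 5, at 5.88 and 6.43. Its difference was -0.80 ± 0.21 (SE, 1.74-fold toward pEGFR-Lo, 95% interval 1.27 to 2.38, adjusted p = 0.0076 from limma). Without pEGFR-Lo replicates 3 and 6 the difference of Itgb5 was -0.59 and its adjusted p from limma was 0.0503. As for Itgb1, the adjusted p of Itgb5 was above 0.01 in 11 of the 22 alternative analyses, most of them with 1 mouse left out.

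Itgb8, which with Itgav binds latent TGF-beta and is known from neural progenitors and astrocytes, ran from 7.29 to 8.14 with a median of 7.73 in pEGFR-Hi and from 8.07 to 8.98 with a median of 8.51 in pEGFR-Lo. The groups overlapped only because pEGFR-Hi replicate 5, at 8.14, was above pEGFR-Lo replicate 5, at 8.07. The difference was -0.78 ± 0.16 (SE, 1.71-fold toward pEGFR-Lo, 95% interval 1.35 to 2.18, adjusted p = 0.00115 from limma). The adjusted p of Itgb8 stayed under 0.01 in the 22 alternative analyses.

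Itgb6, the epithelial partner of Itgav, lay between 2.50 and 3.12 over the 12 mice, below background in each of them, so no fold is given for it. In all, 5 members had groups that did not overlap, 3 of them higher in pEGFR-Hi, where 23.3% of all genes showed no overlap in either direction.

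**Figure D3:**
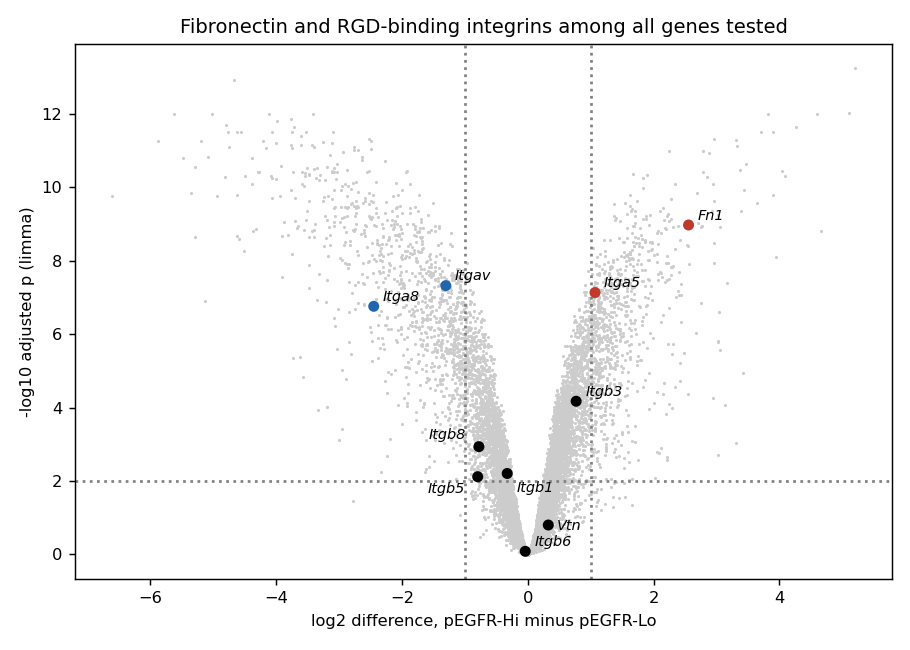
Log2 difference of pEGFR-Hi minus pEGFR-Lo (x axis) against -log10 of the adjusted p from limma (y axis) for all 19938 genes (grey), with the members on top: red, called higher in pEGFR-Hi; blue, called higher in pEGFR-Lo; black, not called. Dotted lines mark 2-fold and an adjusted p of 0.01, and 4 of the 10 members lie past both.

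Within a tumor type, no relation of Fn1 with Itga5 passed the test. Over the 6 pEGFR-Hi mice Pearson's r between them was -0.42 (exact permutation p = 0.386) and Spearman's rho was -0.029 (exact p = 1), and over the 6 pEGFR-Lo mice r was 0.16 (exact p = 0.758) and rho was 0.20 (exact p = 0.714). Across 16 relations of Fn1 with members above background, the strongest were with Itgav in pEGFR-Hi and with Itga8 in pEGFR-Lo. For Itgav, r was -0.85 (exact permutation p = 0.0111, adjusted 0.178) and rho was -0.89 (exact p = 0.0333, adjusted 0.267), and without the mice farthest from the median of Fn1 r was -0.86. For Itga8, r was -0.79 (exact permutation p = 0.0222, adjusted 0.178) and rho was -0.94 (exact p = 0.0167, adjusted 0.267), and r was -0.74 without the mice farthest from the median. None of the 16 passed after adjustment. In the other tumor type, r was 0.017 for Itgav and 0.13 for Itga8. Without the mice farthest from the median of Fn1 these were 0.81 and 0.49, and such trimmed values rest on few mice.

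The 5 genes above background whose values ran most like those of Fn1 over the 12 arrays were Erbb2 (Pearson's r = 0.992), Gli3 (0.991), Cavin3 (0.990), Tenm3 (0.989) and Incenp (0.989). These values are a description of arrays that share the group difference. All 5 genes were higher in pEGFR-Hi, and Erbb2, which encodes a partner receptor of EGFR, was at 7.29 ± 0.14 against 4.95 ± 0.22 (SD, n = 6 mice each).

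The neighbours of the called members had medians near that of all genes, except around Itga5. Over 20 measured neighbours of Fn1 on chromosome 1 the median log2 difference was -0.034, and over 20 neighbours of Itga8 and of Itgav on chromosome 2 it was 0.037 and 0.043. Toward the direction of the member itself, 4 of 20 neighbours were called for Itgav, 1 of 20 for Itga8, 2 of 20 for Fn1 and 0 of 17 for Itga5. In the opposite direction 1 was called for Fn1, 1 for Itga5 and 0 for Itgav and Itga8, where the shares over all genes were 3.99% toward pEGFR-Hi and 5.06% toward pEGFR-Lo. Itga5 lies near the end of chromosome 15, whose 748 measured genes had a median of -0.12, and its 17 neighbours had a median of -0.15, of the opposite sign to Itga5.

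Genes that act with fibronectin were called in both directions. Of 15 measured genes of fibronectin assembly and binding, 4 were called toward pEGFR-Hi and 2 toward pEGFR-Lo, with a median log2 difference of 0.13 against 0.010 over all genes. The calls were 26.7% and 13.3% of the list, where the shares over all genes were 3.99% and 5.06%. Fbln2, a fibulin that binds fibronectin, was at 10.50 ± 0.17 in pEGFR-Hi and 5.29 ± 0.20 in pEGFR-Lo (SD, n = 6 mice each, limma adjusted p = 5.65e-14 from limma). Tns2, a tensin that ties integrin tails to actin, was 2.57-fold higher in pEGFR-Hi (adjusted p = 4.67e-08 from limma). Tgm2, a transglutaminase that crosslinks fibronectin and binds integrins, was 2.24-fold higher in pEGFR-Hi (95% interval 1.68 to 2.99, adjusted p = 1.76e-04 from limma). Plaur, the urokinase receptor, which associates with integrins, was 3.02-fold higher there (95% interval 1.94 to 4.71, adjusted p = 4.59e-04 from limma). Both intervals reach below the 2-fold limit. Without pEGFR-Lo replicates 3 and 6, the list had 3 calls toward pEGFR-Hi. The syndecan Sdc2, a heparan sulfate proteoglycan, was 2.10-fold higher in pEGFR-Lo, and Igfbp3, a binding protein of insulin-like growth factors, was 3.45-fold higher there.

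Of 15 other measured ligands of RGD-binding integrins, 1 was called, Ccn2 (connective tissue growth factor), at 7.02 ± 0.37 in pEGFR-Lo and 5.81 ± 0.16 in pEGFR-Hi (SD, n = 6 mice each; 2.31-fold, adjusted p = 5.63e-06 from limma). This call is 6.67% of the list, where 5.06% of all genes were called toward pEGFR-Lo. The median over the list was -0.026. Npnt, which encodes nephronectin, the ligand of the Itga8 receptor, was at 6.66 ± 0.35 in pEGFR-Hi and 5.91 ± 0.40 in pEGFR-Lo, a 1.68-fold difference opposite in sign to that of Itga8 and short of the fold limit (adjusted p = 0.00458 from limma). Tnc, the gene of tenascin C, was at 10.18 and 10.28 (adjusted p = 0.542 from limma). Ccn3 was at 6.67 ± 0.53 and 5.71 ± 0.60 (1.95-fold, adjusted p = 0.0101 from limma), just short of both limits. The count of this list higher in pEGFR-Hi went from 0 to 1 without pEGFR-Hi replicate 1 or 3, without pEGFR-Lo replicate 5 or 6 or replicates 3 and 6, and with array weights over all 12 mice. Npnt, Tnc and Ccn3 were chosen after their values were seen.

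Latent TGF-beta, which is held in the matrix and released by Itgav receptors, also had called genes in both directions. Of 12 measured genes, 2 were called toward each tumor type, with a median of 0.023. That is 16.7% each way, where 3.99% of all genes were called toward pEGFR-Hi and 5.06% toward pEGFR-Lo. Tgfb1 and Tgfb3, whose latent forms carry an RGD motif, were 2.18-fold and 2.46-fold higher in pEGFR-Hi (adjusted p = 3.06e-05 and 7.19e-06 from limma). Tgfb2, whose latent form lacks that motif, ran from 5.64 to 7.68 in pEGFR-Lo and from 4.93 to 5.22 in pEGFR-Hi. Its mean was 3.28-fold higher in pEGFR-Lo, with an adjusted p from limma of 6.31e-05. Ltbp1, which anchors latent TGF-beta in the fibronectin matrix, was at 7.67 ± 0.27 in pEGFR-Lo and 5.27 ± 0.18 in pEGFR-Hi (SD, n = 6 mice each; 5.29-fold, adjusted p = 3.69e-10 from limma).

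Among 18 other integrin chains, 2 were called higher in pEGFR-Lo and 2 in pEGFR-Hi, with a median of -0.031. That is 11.1% each way, where 3.99% of all genes were called toward pEGFR-Hi and 5.06% toward pEGFR-Lo. Itga9, whose receptor binds tenascin C and osteopontin, was at 8.45 ± 0.19 in pEGFR-Lo and 6.44 ± 0.31 in pEGFR-Hi (SD over 6 mice per group), 4.02-fold apart with an adjusted limma p of 7.85e-09, and Itga1, of a collagen receptor, was at least 2.47-fold higher there. Itga7 and Itgb4, chains of laminin receptors, were 2.47-fold and 2.39-fold higher in pEGFR-Hi (adjusted p = 1.42e-06 and 4.20e-08 from limma). Of the leukocyte chains, Itgad was above background in all 12 mice (5.04 and 5.08), Itgb7 and Itgal lay near background, with means of 4.17 and 4.18 and of 3.85 and 4.17 in pEGFR-Hi and pEGFR-Lo, and Itgam, Itgax, Itgae and Itgb2 had means below it in both groups. Among 33 measured genes of the adhesion complex inside the cell, 2 were called in each direction and the median was -0.018. This share of 6.06% in each direction was near that of all genes. Parvb, of the complex of integrin-linked kinase, was 5.40-fold higher in pEGFR-Hi (adjusted p = 4.75e-07 from limma), as was the paxillin relative Tgfb1i1 at 2.09-fold. The kinase Fyn was 3.44-fold higher in pEGFR-Lo (limma adjusted p = 2.04e-09), as was Arhgef6, an exchange factor for Rac, at 2.32-fold. The groups of Tgfb1i1 and of Arhgef6 overlapped, and without pEGFR-Lo replicate 2, 4 or 5 the list had 1 call toward pEGFR-Hi.

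**Figure D4:**
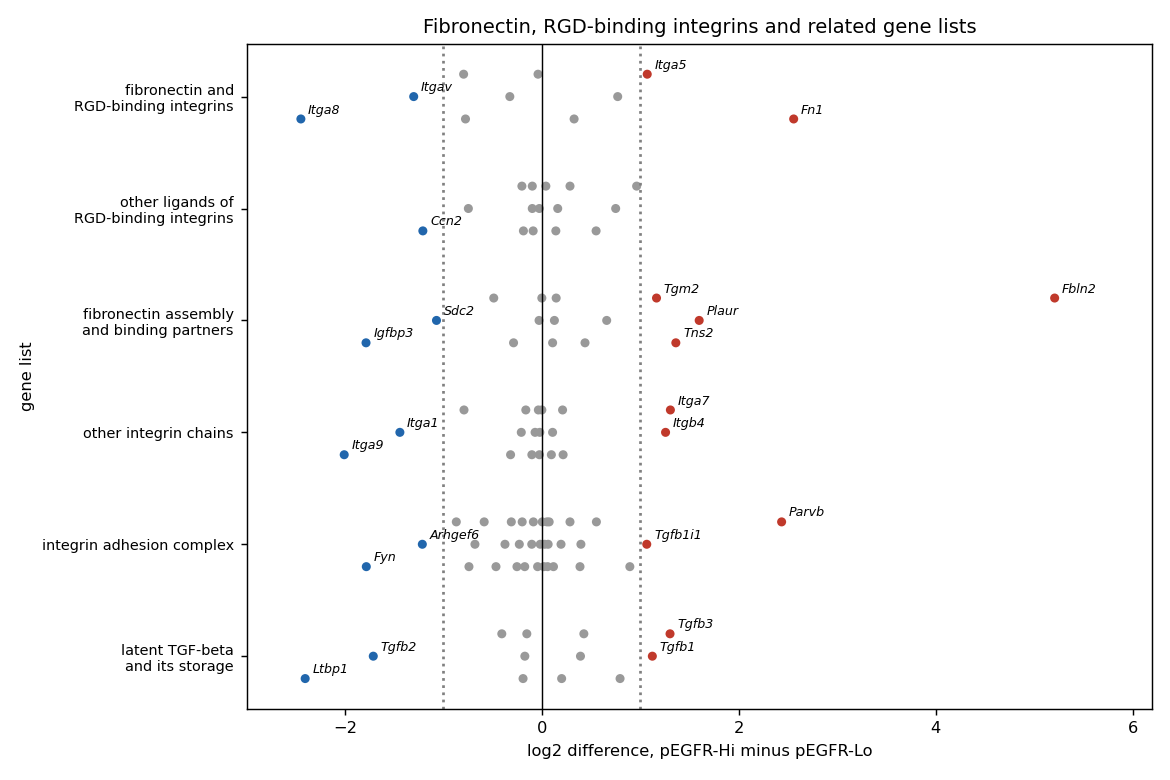
Log2 difference of pEGFR-Hi minus pEGFR-Lo (x axis) for the measured genes in each of 6 lists (y axis), from 6 mice per group. Red points are called higher in pEGFR-Hi, blue points higher in pEGFR-Lo and grey points are not called. Dotted lines show the 2-fold limits, and vertical scatter within a list has no meaning. Each list other than the further RGD ligands has called genes on both sides.

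Fibronectin, Itga5, Itga8, Itgb3 and Vtn are also made by vascular cells, fibroblasts and platelets, so markers of these cells were read beside them. None of 11 endothelial markers was called with limma at these limits, while at an unadjusted p under 0.05 there was 1 higher in each tumor type. Flt1, a VEGF receptor, was at 5.04 ± 0.31 in pEGFR-Hi and 4.21 ± 0.16 in pEGFR-Lo (SD, n = 6 mice each, 1.78-fold, limma adjusted p = 8.84e-05), without overlap. Emcn was 1.89-fold higher in pEGFR-Lo without overlap (adjusted p = 0.00252 from limma), with both means below background. Cldn5 and Vwf were above background in all 12 mice and Pecam1, Tek, Esam and Slco1a4 in none. The mean log2 level of the endothelial list was 3.50 to 3.85 over pEGFR-Hi mice and 3.64 to 3.85 over pEGFR-Lo mice.

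None of 8 fibroblast markers was called, where 3.99% of all genes were called toward pEGFR-Hi and 5.06% toward pEGFR-Lo. At an unadjusted limma p under 0.05, 2 were higher in pEGFR-Lo and 0 in pEGFR-Hi. By that rule 3945 of all 19938 genes were higher in pEGFR-Lo and 4586 in pEGFR-Hi. Col1a1, Col1a2, Col3a1 and Pdgfrl were above background in all 12 mice, with Pdgfrl at 6.15 in pEGFR-Hi and 6.69 in pEGFR-Lo (limma adjusted p = 0.0155), and Lum, Dpt and Slc6a13 were above it in none. The list's mean level was 3.94 to 4.31 in pEGFR-Hi and 4.09 to 4.25 in pEGFR-Lo.

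Of 11 markers of pericytes and smooth muscle, 9 had a mean above background over all mice. Rgs5 was higher in pEGFR-Lo, by at least 11.2-fold, and Anpep in pEGFR-Hi, by at least 2.38-fold. The other 9 were not called. These calls were 9.09% of the list in each direction, where 3.99% of all genes were called toward pEGFR-Hi and 5.06% toward pEGFR-Lo. Acta2 (6.72 and 6.79), Notch3 (5.78 and 5.82, means in pEGFR-Hi and pEGFR-Lo) and Tagln were above background in all 12 mice, Higd1b in none and Pdgfrb in 1. The list's mean level was 4.49 to 4.93 in pEGFR-Hi and 4.55 to 4.96 in pEGFR-Lo.

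Of 4 measured platelet markers, Pf4 was higher in pEGFR-Lo, by at least 4.52-fold. This call is 25% of a list of 4, where 5.06% of all genes were called toward pEGFR-Lo. Itga2b, at 4.56 in pEGFR-Hi and 4.72 in pEGFR-Lo, was above background in all 12 mice and was not called, and Ppbp and Gp9 were below background in all of them. The mean level was 3.60 to 3.78 in pEGFR-Hi and 4.03 to 4.56 in pEGFR-Lo.

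Of 12 markers of microglia and macrophages, 7 had a mean above background over all mice. P2ry12 was 3.36-fold higher in pEGFR-Lo and Cd68 2.36-fold higher in pEGFR-Hi. These calls were 8.33% of the list in each direction, where 3.99% of all genes were called toward pEGFR-Hi and 5.06% toward pEGFR-Lo. Trem2 (5.02 and 5.05), Cx3cr1 (5.28 and 5.13) and Tmem119 (4.56 and 4.91, means in pEGFR-Hi and pEGFR-Lo) were above background in all 12 mice and were not called, and Aif1, Ptprc, Csf1r, Adgre1 and Fcrls were below it in all of them. The mean level was 4.01 to 4.22 in pEGFR-Hi and 3.97 to 4.36 in pEGFR-Lo. The part of other cell types in the differences of the members was not tested.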

How the data were processed

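Sorted tumor cells of 12 mice, 6 with each tumor type, were profiled with 1 array per mouse, and groups and replicate numbers came from the labels. The deposited values are log2, made by the authors with RMA in Affymetrix Expression Console per the submitters' processing notes, a method that corrects background, gives all arrays 1 distribution and summarises each probe set, so changes in total RNA per cell cannot be seen. The build behind the array annotation was not stated in these sources. Probe sets with 1 gene symbol (21789 of 35556) were used, 21698 of them found in the RefSeq table of GRCm38.p6 through Entrez IDs, and the brightest per gene was kept. limma 3.58.1 in R 4.3.3 was fitted to all 19938 genes, with p-values adjusted over all of them. Code was tested on simulated arrays of this comparison over 19938 genes: limma called 98 of 100 genes changed by 1.5 and 100 of 100 changed by 2 on the log2 scale, and 0 unchanged genes. Both shifts lie past the 2-fold limit, so this test does not cover smaller differences, such as those of Itga5 and Itgav. Some members of the related lists are not analysed here.

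The members and lists were chosen with earlier results of these data known, and the promoter motifs after the calls. Named genes were the members, up to 4 called genes per list, taken by smallest adjusted p, called markers and the 5 genes most like Fn1. Other genes named in the text (Tgm2, Plaur, the interferon genes, uncalled markers and uncalled list genes) were chosen after their values were seen. The first alternative was SAM with 100 permutations, in code written here, where the paper ran SAM in Multiple Experiment Viewer. The others were a second quantile normalization, centring on medians, a filter on dim genes, a replicate block, trend and robust variance, array weights, dropping the fold limit at an adjusted p of 0.05, averaging probe sets per gene and leaving out each array in turn. The comparison that omits pEGFR-Lo replicates 3 and 6 was chosen after seeing the data. Figures were drawn with matplotlib 3.10.9 in Python 3.11.15. The number of arrays limits the precision.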

Additional observations from a re-analysis of the deposited data

Results flagged for a closer look

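In 3 of 20 groups of 6 mice, 1 mouse lay far from the others by its gap to the nearest mouse over the range of its group, and chance gives about 1 in 20 groups. Itga5 was lowest in pEGFR-Hi replicate 1, at 6.62. Itgb3 was highest in pEGFR-Lo replicate 2, at 4.66, and Itgb6 was highest in pEGFR-Lo replicate 1, at 3.12, which is below background.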

How the results depend on the processing

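Fn1, Itga5, Itgav and Itga8 were called in the same direction in all 22 alternatives, with log2 differences of 2.48 to 2.66, 1.01 to 1.12, -1.35 to -1.23 and -2.59 to -2.29. SAM, the filter, the replicate block, trend and robust variance, the dropped fold limit and averaging of probe sets cannot change these differences. With an adjusted p under 0.05 and no fold limit, 5 members were higher in pEGFR-Lo, now with Itgb1, Itgb5 and Itgb8, 3 were higher in pEGFR-Hi, now with Itgb3, and the calls over all genes came to 3871 toward pEGFR-Hi and 3314 toward pEGFR-Lo, in a rule that asks for less by construction. Leaving out 1 mouse at a time gave 2 to 2 members in each direction, 774 to 846 genes toward pEGFR-Hi and 991 to 1031 toward pEGFR-Lo. Over these the difference of Itgb6, below background, ran from -0.072 to 0.026, and its sign turned, at 0.00659, 0.0102 and 0.0257 without pEGFR-Hi replicate 1, pEGFR-Hi replicate 2 or pEGFR-Lo replicate 1, where the cause was not tested. With the replicate number as a block, 2 members were called in each direction and 801 and 1008 genes over all. The deviations of same-numbered mice from their group means had correlations of -0.18 to 0.12. This cannot exclude a pairing, and the labels state none. The adjusted p from limma under the block was 0.0199 for Itgb1 and 0.0118 for Itgb5. The adjusted p of Itgb1 and of Itgb5 reached 0.0316 and 0.0503 without pEGFR-Lo replicates 3 and 6. Of 220 counts over the related lists, 16 moved by over 1.5 times, 7 of them where the fold limit was dropped. Among these, the adhesion complex genes higher in pEGFR-Hi fell from 2 to 1 without pEGFR-Lo replicates 2, 4 or 5. Signal near background limits Vtn, Itgb3 and the pEGFR-Hi level of Itga8.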
